A study of Homo sapiens with 8 samples.

Results

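The RNAs of the integrins and laminins were compared between cell lines that express TIA1, TIAR, HuR or green fluorescent protein (GFP). Members were the genes whose whole array name is ITGA with a letter or number after it, one of ITGB1 to ITGB8, or LAMA, LAMB or LAMC with a number from 1 to 5. This gave 38 genes on 58 probes, out of 36337 gene names on 50599 probes. They comprise 18 integrin alpha chains, 8 integrin beta chains and 12 laminin chains.

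The cells were human embryonic kidney HEK293 cells with the Flp-In T-REx system, called FT293 cells by the study, in which tetracycline switches on a gene placed at a fixed genomic site. The lines expressed GFP, GFP-HuR, GFP-TIA1 or GFP-TIAR, so that all of them carried GFP, and by the study's account RNA was taken on day 3 of tetracycline treatment. Total RNA of each line was hybridized to 2 of the 8 one-colour arrays, all on 1 slide, and the submitters describe the arrays of a line as independent biological replicates. Each line was 1 stable cell line, so a line's own features and the effect of its protein cannot be told apart.

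TIA1, TIAR and HuR are RNA-binding proteins that control the splicing, stability and translation of many messenger RNAs. Integrins are surface receptors made of an alpha and a beta chain, which join the cell to its surroundings and signal to the cytoskeleton. Laminins are trimers of an alpha, a beta and a gamma chain that form the scaffold of basement membranes, and integrins with the chains alpha 3, alpha 6 and alpha 7 bind them. In the kidney, alpha 8 pairs with beta 1 during the outgrowth of the ureteric bud, and the laminin beta 2 chain is part of the filter of the glomerulus.

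Each probe reads 60 bases of a transcript. Sequences from the array design are given for a few of the genes described below, from probes that have a reading frame without a stop codon through all 60 bases. Other probes with such a frame are not printed, and the frame alone does not place a probe in a coding part. No part is singled out by capitals, and positions are given on hg19, as the array design has them.
ITGA8 (NM_003638, chr10:15561305-15561364, minus strand): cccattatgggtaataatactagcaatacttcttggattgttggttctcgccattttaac
ITGB1 (NM_133376, chr10:33200507-33200566, minus strand): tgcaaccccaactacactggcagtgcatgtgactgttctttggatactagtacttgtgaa
LAMA1, other probe (NM_005559, chr18:6956742-6958512, minus strand): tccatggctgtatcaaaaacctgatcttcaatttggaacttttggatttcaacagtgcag
LAMB1 (NM_002291, chr7:107564411-107564470, minus strand): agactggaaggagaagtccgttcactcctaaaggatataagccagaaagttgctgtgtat
LAMB2, other probe (NM_002292, chr3:49159144-49159203, minus strand): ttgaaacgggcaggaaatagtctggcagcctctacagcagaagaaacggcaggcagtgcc
LAMC3, other probe (NM_006059, chr9:133963144-133963203, plus strand): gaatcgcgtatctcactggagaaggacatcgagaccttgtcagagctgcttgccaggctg
The LAMA1 probe spans more than its 60 bases on the genome and so crosses an exon junction. Exons were not assigned to the other probes, because no genome annotation was used here.

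Signals are given as log2 of the processed signal minus the 75th percentile of the array, so that 0 is the signal that 75% of an array's non-control spots do not exceed. A level of one probe is not comparable with that of another. Only probes that the scanner software marked as well above background in 1 or both of the compared lines, on both of its arrays, were tested. Up- or downregulation means here that limma gave an adjusted p under 0.05 (Benjamini-Hochberg, over all probes tested) and that the change reached 2-fold, and such a gene is said to be called. A gene with several probes was counted by the brightest of those above background, and its remaining probes are called other probes. Of the 38 members, 32 had a probe above background in 1 line or more, on both its arrays, namely 14 alpha chains, 7 beta chains and 11 laminin chains. ITGA2, ITGAD, ITGAL, ITGAX, ITGB6 and LAMB4 were not, so no level is given for them.

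The GFP 1 array stood apart. On it 86% of the probes were well above background, against 53.2% to 58.5% on the other 7 arrays, and its mean local background was 83.2 intensity units against 35.7 to 41.5. Between the GFP arrays 5 of 28 members differed at least 2-fold, and between the arrays of each other line 0 members did. Of 2 probes of TIAL1, which encodes TIAR, one read 4.87 and 4.98 in TIAR-expressing cells and 1.63 to 2.52 on the other arrays. The other read -4.12 and -3.85 with TIAR, against -3.70 to -3.45 on the GFP and HuR arrays and -4.36 and -3.98 with TIA1. No probe of TIA1 or of ELAVL1, the gene of HuR, was highest in its own line, and whether these probes lie in the part that a transgene carries is not known. The TIA1 2 array carries the name TIA1 in its title and TIA2 in its source name.

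In TIA1- versus HuR-expressing cells, 5 members were upregulated and 1 was downregulated of 32 tested. The upregulated genes were ITGA8, ITGB4, ITGAM, ITGA7 and LAMB2, and the downregulated gene was ITGB3. Of all 21234 genes tested in this comparison, 8.45% were upregulated and 4.74% downregulated, so the members' shares were 15.6% and 3.12%. ITGB3 was tested through the HuR arrays alone, and among probes well above background on all 4 arrays 5 members were upregulated and 0 downregulated of 30, with 11.2% of all genes called. The median log2 fold change was 0.10 over the members and 0.08 over all genes. In TIAR- versus HuR-expressing cells, 6 members were upregulated and 2 were downregulated of 32 tested. LAMB3 joined the upregulated genes and LAMA1 the downregulated ones. Of all 21519 genes tested, 7.39% were upregulated and 2.83% downregulated, against 18.8% and 6.25% of the members, and the medians were 0.06 and 0.12. Among probes well above background on all 4 arrays these counts were 6 and 1 of 31, with 8.37% of all genes called. These comparisons share the HuR arrays and are not independent of each other. The difference between the members' shares and those of all genes was not tested. In RNA of whole cultures, fewer cells with a transcript and less of it per cell cannot be told apart.

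**Figure D1:**
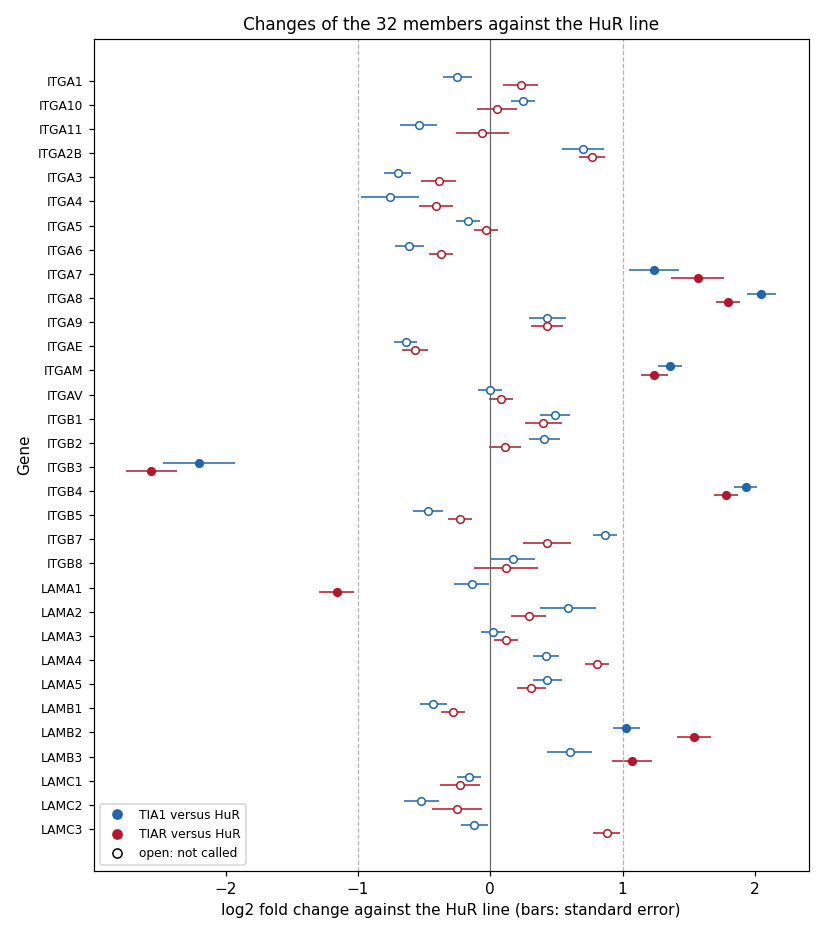
Log2 fold change against HuR-expressing cells for the 32 members above background, in TIA1-expressing (blue) and TIAR-expressing cells (red). Bars are standard errors from limma, filled points are called and dashed lines mark a 2-fold change; the points of ITGB3 are fitted values of a probe not above background in the TIA lines. ITGA8, ITGB4, ITGAM, ITGA7 and LAMB2 lie to the right of the 2-fold line in both comparisons, and LAMA1 lies to the left of it in TIAR-expressing cells.

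ITGA8 encodes the alpha 8 chain, a receptor for nephronectin and other ligands with the sequence RGD. Its probe, printed above, read -1.15 and -1.23 with HuR, 0.78 and 0.94 with TIA1, and 0.59 and 0.61 with TIAR. It read -0.83 and -0.43 with GFP, so that the TIA lines lay above every HuR and GFP array. Against HuR the log2 fold change was 2.05 ± 0.11 (standard error, SE, adjusted p = 0.0022) with TIA1 and 1.80 ± 0.09 (SE, adjusted p = 0.0039) with TIAR, or 4.14-fold and 3.47-fold. ITGA8 was called under 14 of 15 alternative settings in each comparison. The exception was the methods' paired test after Benjamini-Hochberg adjustment, which called 0 genes in all.

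ITGA7 encodes the alpha 7 chain, the main laminin receptor chain of skeletal muscle. Its probe (NM_002206, chr12:56078420-56078479) read 1.53 and 1.03 with HuR and 2.53 and 2.51 with TIA1. It read 2.87 and 2.84 in TIAR-expressing cells and 1.72 and 1.97 in GFP-expressing cells. The order was HuR, GFP, TIA1 and TIAR, with no overlap between the lines, though the TIA lines differed by 0.33 (adjusted p = 0.17) and were not called apart. ITGA7 changed by 1.24 on the log2 scale ± 0.19 (SE, adjusted p = 0.012) with TIA1 and 1.57 ± 0.20 (SE, adjusted p = 0.011) with TIAR. Without the HuR 2 array, the values were 0.99 (adjusted p = 0.048) and 1.32 (adjusted p = 0.059), and neither was called.

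ITGB4 encodes the beta 4 chain, which pairs with alpha 6 in the hemidesmosomes that fix epithelia to laminin. Its probe (NM_000213, chr17:73753824-73753883) read -4.89 and -4.81 with HuR and -2.95 and -2.90 with TIA1. It read -3.07 on both TIAR arrays, and -3.64 and -4.03 on the GFP arrays. ITGB4 differed from HuR by 1.93 on the log2 scale ± 0.09 (SE, adjusted p = 0.0020) with TIA1 and 1.78 ± 0.09 (SE, adjusted p = 0.0039) with TIAR. With the authors' values it was 0.95 and 0.64, below 2-fold in both.

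ITGAM encodes the alpha M chain, which pairs with beta 2 on myeloid cells. The mean over its 10 spots (NM_000632, chr16:31343816-31343875) was -4.91 and -4.99 with HuR, -3.60 and -3.59 with TIA1, and -3.68 and -3.75 with TIAR. The GFP arrays read -2.37 and -5.24, farther apart than all the other lines. The log2 fold change was 1.36 ± 0.09 (SE, adjusted p = 0.0029) with TIA1 and 1.24 ± 0.10 (SE, adjusted p = 0.0058) with TIAR. With normexp background correction it was 0.88 and 0.74, and with the authors' values 0.52 and 0.28, none of them called. Without the HuR 1 or the HuR 2 array the TIAR value was 1.28 (adjusted p = 0.057) or 1.20 (adjusted p = 0.064). The partner of alpha M, ITGB2, had the log2 fold changes 0.41 (adjusted p = 0.055) and 0.11 (adjusted p = 0.54), on a probe of transcript ENST00000397846, while its other 2 probes were not above background on both arrays of any line.

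Leukocyte markers were looked at beside ITGAM. Of 12 such genes 4 to 6 were well above background on both arrays of a line. CD3E, MS4A1, FCGR3A and CD48 were not in any line, and LYZ was not measured here. The summed linear signal of the 7 that were was 1.12 and 0.971 with HuR, 1.78 and 1.77 with TIA1, and 1.28 and 1.47 with TIAR, as multiples of the array's 75th percentile. On the GFP arrays it was 3.38 and 0.949. CD14 was 1.13 higher on the log2 scale (adjusted p = 0.0041) in the TIA1 comparison. The part of this in the ITGAM result was not tested.

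ITGB3 encodes the beta 3 chain, which pairs with alpha V or, on platelets, with alpha IIb. Its probe (NM_000212, chr17:45389027-45389086) read -5.03 and -5.21 in HuR-expressing cells, where it was well above background on both arrays. It was not well above background in TIA1-expressing cells, with -7.69 and -6.96, or in TIAR-expressing cells, with -7.90 and -7.46. The GFP arrays read -4.67 and -5.28, of which 1 was well above background. ITGB3 was at least 1.29-fold lower with TIA1 (adjusted p = 0.0075) and at least 1.59-fold lower with TIAR (adjusted p = 0.0053). These bounds are below 2-fold, and the calls and their p rest on fitted values of a dim probe. The probe entered both comparisons through the HuR arrays, where it is high, and without the HuR 1 array the adjusted p was 0.053 and 0.05. With normexp background correction its log2 fold change was -0.23 and -0.30, not called.

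The other integrin chains were not called. ITGAV, the alpha V chain shared by several RGD receptors, read 1.19 and 1.18 in both the HuR and the TIA1 line and 1.29 and 1.25 in the TIAR line. On the GFP arrays it read 0.92 and 1.41, a span that holds the values of every other line. The change against HuR was 0.00 ± 0.09 (SE) with TIA1 and 0.08 ± 0.09 (SE) with TIAR. ITGB1, the beta 1 chain that pairs with alpha 8, alpha 7 and many others, read 1.29 and 1.13 with HuR, 1.77 and 1.63 with TIA1, and 1.74 and 1.48 with TIAR. On the GFP arrays it read 0.65 and 1.24. Against HuR it differed by 0.49 ± 0.11 (SE, adjusted p = 0.031) and 0.40 ± 0.14 (SE, adjusted p = 0.099), below 2-fold in both comparisons.

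By the adjusted p alone, whatever the fold change, 11 members were higher and 8 lower in TIA1- than in HuR-expressing cells. Over all genes 24.2% were higher and 17.3% lower by this rule, against 34.4% and 25% of the members. In TIAR-expressing cells 9 members were higher and 4 lower than with HuR, or 28.1% and 12.5%, against 18.7% and 12.2% of all genes. Below 2-fold stood the chains of laminin receptors alpha 3 and alpha 6. ITGA3 had the log2 fold changes -0.70 (adjusted p = 0.01) with TIA1 and -0.39 (adjusted p = 0.094) with TIAR. ITGA6 had -0.61 (adjusted p = 0.018) and -0.37 (adjusted p = 0.047), and its other probe -0.46 and -0.42. ITGAE, the alpha E chain that binds E-cadherin, had -0.64 (adjusted p = 0.01) and -0.57 (adjusted p = 0.02). ITGA2B had 0.70 (adjusted p = 0.03) and 0.77 (adjusted p = 0.012), and ITGB7, the partner of alpha E, 0.87 (adjusted p = 0.0055) and 0.43 (adjusted p = 0.15). ITGB5 had -0.47 (adjusted p = 0.034) and -0.23 (adjusted p = 0.13).

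**Figure D2:**
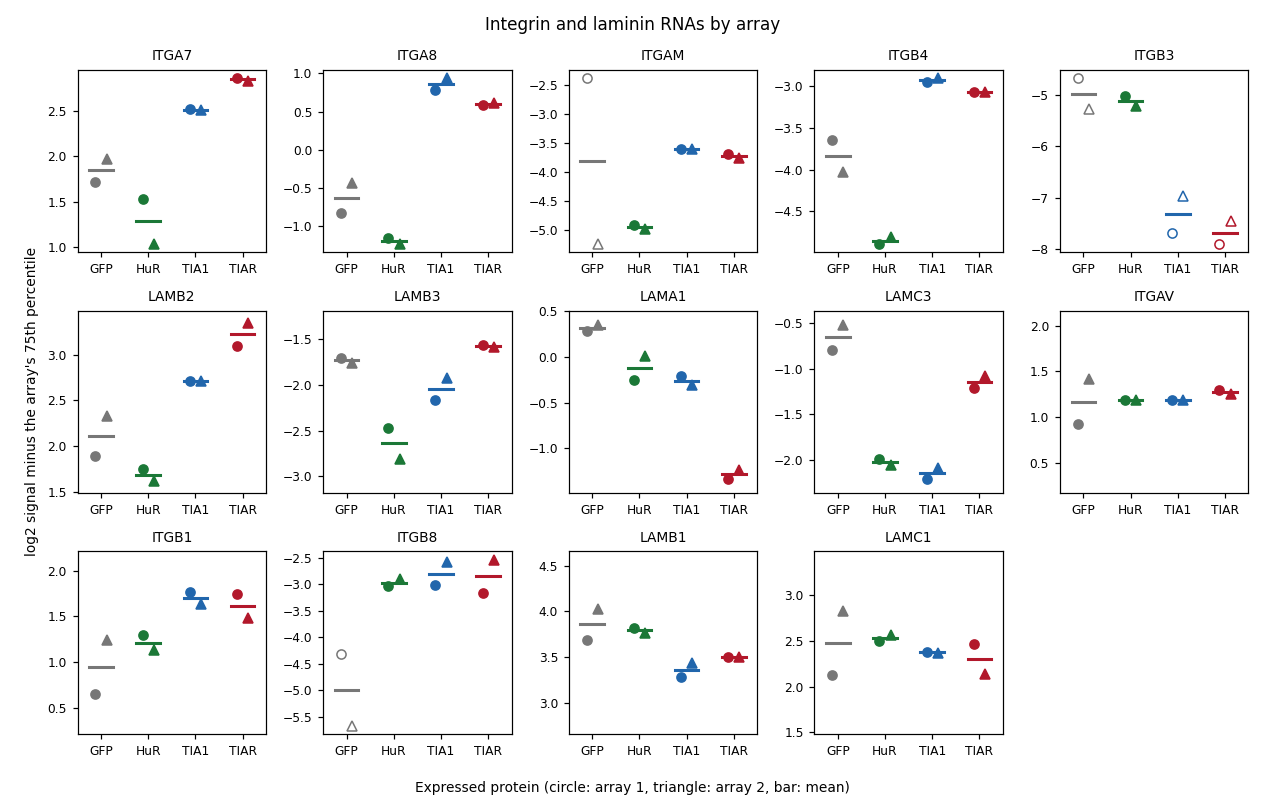
Log2 signal minus the array's 75th percentile for 14 members on each array (circle, array 1; triangle, array 2; bar, mean of the line). Open symbols mark lines without 2 arrays on which the probe was well above background. On this scale ITGA7, ITGA8, ITGB4 and LAMB2 run from HuR through GFP to the TIA lines. LAMA1 is lowest in the TIAR line and LAMC3 is highest in the GFP line.

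Among the laminin chains, LAMB2 was upregulated in both comparisons with HuR. It encodes the beta 2 chain, found in the glomerulus and at the neuromuscular junction. Its counted probe (chr3:49158584-49158643) read 1.75 and 1.62 with HuR, 2.71 on both TIA1 arrays, 3.10 and 3.35 with TIAR, and 1.89 and 2.33 with GFP. Its change against HuR was 1.03 ± 0.10 (SE, adjusted p = 0.0046) with TIA1 and 1.54 ± 0.13 (SE, adjusted p = 0.0064) with TIAR. The other probe, printed above, gave 0.89 (adjusted p = 0.015), just below 2-fold, and 1.43 (adjusted p = 0.0048). Without the HuR 2 array the TIA1 value was 0.96 (adjusted p = 0.049) and the TIAR value 1.48 (adjusted p = 0.063), and without HuR 1 the TIAR value was 1.61 (adjusted p = 0.056).

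LAMB3, the beta chain of a laminin of skin and other epithelia, was measured by 1 probe (NM_001017402, chr1:209788356-209788415). It read -2.47 and -2.81 with HuR, -2.16 and -1.92 with TIA1, -1.56 and -1.58 with TIAR, and -1.70 and -1.76 with GFP. The log2 fold change against HuR was 1.07 ± 0.15 (SE, adjusted p = 0.014) with TIAR and 0.60 ± 0.17 (SE, adjusted p = 0.049) with TIA1. The TIAR call held under 6 of 15 alternatives, with values from 0.69 to 1.24, and was lost without the HuR 1 (adjusted p = 0.057) or the HuR 2 array (0.90, adjusted p = 0.083).

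LAMA1, a laminin alpha chain of the embryo and the kidney, was downregulated in TIAR-expressing cells. Its counted probe (chr18:6941976-6942035) read -1.33 and -1.24 with TIAR, against -0.25 and 0.01 with HuR, -0.21 and -0.31 with TIA1, and 0.29 and 0.35 with GFP. The log2 fold change was -1.16 ± 0.13 (SE, adjusted p = 0.0096) against HuR, and the exon-crossing probe printed above gave -1.03 ± 0.24 (SE, adjusted p = 0.041). In TIA1- versus HuR-expressing cells the counted probe gave -0.14 (adjusted p = 0.43). Without HuR 1 or HuR 2 the TIAR value was -1.29 (adjusted p = 0.057) or -1.03 (adjusted p = 0.074).

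The remaining partners of the common laminins were not called. LAMB1 read 3.82 and 3.76 with HuR, 3.28 and 3.43 with TIA1, 3.50 on both TIAR arrays, and 3.68 and 4.03 with GFP. It differed from HuR by -0.43 ± 0.10 (SE, adjusted p = 0.034) with TIA1 and -0.28 ± 0.09 (SE, adjusted p = 0.087) with TIAR. LAMC1, the gamma 1 chain of most laminins, read 2.50 and 2.57 with HuR, 2.38 and 2.37 with TIA1, 2.47 and 2.14 with TIAR, and 2.13 and 2.83 with GFP. Its log2 fold change was -0.16 ± 0.09 (SE) and -0.23 ± 0.15 (SE), and the GFP arrays spanned the other lines.

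Probes of the same gene did not always move alike. Of 10 members with several tested probes, 4 had probes of opposite sign in the TIA1 comparison with HuR and 2 in the TIAR comparison. In none of these did probes of both signs reach an adjusted p under 0.05 in limma. LAMA3 gave 0.02 with TIA1 and 0.12 with TIAR on its counted probe (NM_198129). Its other probe, for transcript ENST00000538801 (chr18:21375992-21376051), read -1.97 and -2.04 with HuR, -2.98 and -3.02 with TIA1, and -2.53 and -2.49 with TIAR. There the signal was just under 2-fold lower with TIA1 than with HuR (adjusted p = 0.0043), and the log2 fold change with TIAR was -0.51 (adjusted p = 0.025). LAMA4 gave 0.42 (adjusted p = 0.037) and 0.81 (adjusted p = 0.0096) on its counted probe for NM_001105209 (chr6:112574987-112575046), and its other 3 probes ranged from -0.11 to 0.26 and from -0.39 to 0.49.

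LAMA5 needs its probe sequence to be read. The counted probe, for transcript ENST00000370677 (chr20:60920556-60920615), had no open reading frame, and its bases 21 to 50 are agctactccggaggctgaggtggaaggatt. Closely similar letters occur in the Alu repeats and in 7SL RNA. The probe read 6.88 to 7.57 over the 8 arrays, and its log2 fold change was 0.43 (adjusted p = 0.036) with TIA1 and 0.31 (adjusted p = 0.097) with TIAR. The other LAMA5 probe (NM_005560, chr20:60885302-60885361) read -0.78 and -0.82 with HuR, -0.37 and -0.28 with TIA1, and -0.41 and -0.26 with TIAR. It gave 0.47 (adjusted p = 0.022) and 0.46 (adjusted p = 0.039). How much of the counted probe's signal comes from other RNAs was not tested.

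TIAR- and TIA1-expressing cells were also compared with each other. Of 31 members tested, LAMC3 was higher with TIAR and LAMA1 was lower, or 1 in each direction, against 1.34% and 1.03% of 20774 genes. LAMC3 encodes the gamma 3 chain, found in nerve and other tissues. Its counted probe (chr9:133967284-133967341) read -2.21 and -2.09 with TIA1, -1.21 and -1.08 with TIAR, -1.99 and -2.06 with HuR, and -0.80 and -0.52 with GFP. The log2 fold change of TIAR against TIA1 was 1.00 ± 0.12 (SE, adjusted p = 0.037). The other probe, printed above and well above background on 1 of the 2 TIA1 arrays, gave 1.37 (adjusted p = 0.024). LAMA1 had -1.02 ± 0.12 (SE, adjusted p = 0.034) on its counted probe and -0.76 (adjusted p = 0.21) on the other. Neither call held when any 1 of the 4 arrays was left out, with adjusted p from 0.12 to 0.15, while the values ran from 0.94 to 1.07 for LAMC3 and from -1.07 to -0.97 for LAMA1. By the adjusted p alone the counts were again 1 and 1, against 1.85% and 1.57% of all genes. ITGA8, ITGA7, ITGB4, ITGAM and LAMB2 had differences between the TIA lines of -0.26, 0.33, -0.15, -0.12 and 0.51, with adjusted p from 0.12 to 0.55.

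**Figure D3:**
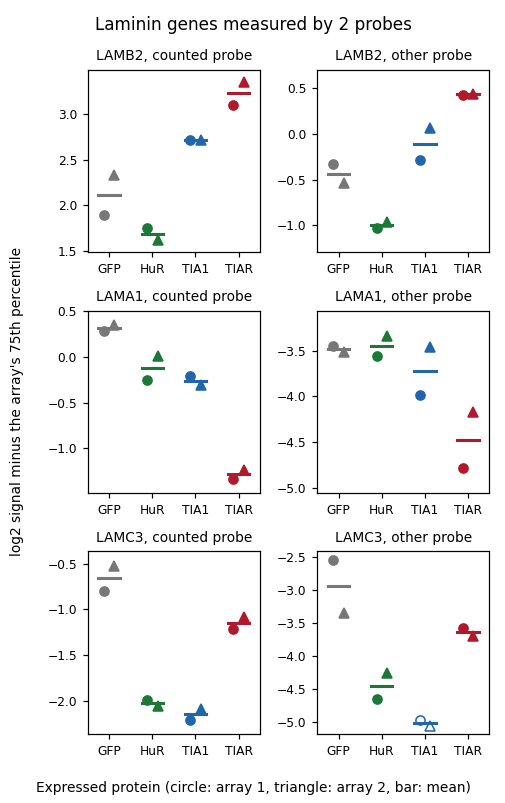
Log2 signal minus the array's 75th percentile for LAMB2, LAMA1 and LAMC3, each by 2 probes, on every array (circle, array 1; triangle, array 2; bar, mean of the line; open, line not well above background on both arrays). In the left column LAMB2 is highest with TIAR, LAMA1 lowest with TIAR, and LAMC3 about 1 log2 unit higher with TIAR than with TIA1; the right column shows the same order of these lines.

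Against GFP-expressing cells, 0 members were called in limma with TIA1 (31 tested), with TIAR (31 tested) or with HuR (32 tested), and 0% of all genes were called in either direction. At an unadjusted p under 0.05 with a fold change of at least 2, there were 4, 6 and 4 members, against 10.3%, 7.59% and 6.5% of all genes. The methods' paired test at an unadjusted p under 0.05 gave 1, 1 and 0, against 2.63%, 1.81% and 1.56% of all genes. Limma on all 8 arrays together gave 4, 6 and 3, against 9.02%, 5.98% and 4.03%. Without the GFP 1 array, in a fit of the other 7 arrays chosen after the data were seen, 8, 4 and 3 members were called, against 12.4%, 10.2% and 6.3% of all genes. That fit takes the spread of the lone GFP 2 array from the other lines.

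In that fit ITGA8 was 1.28 ± 0.13 (SE, adjusted p = 0.0031) above GFP with TIA1 and 1.03 ± 0.13 (SE, adjusted p = 0.0073) with TIAR, and -0.77 (adjusted p = 0.023) with HuR, on the log2 scale. LAMA1 was called with TIAR alone, at -1.63 ± 0.15 (SE, adjusted p = 0.0037). LAMC3 was lower with TIA1 (-1.63, adjusted p = 0.0020) and with HuR (-1.50, adjusted p = 0.0067), and had -0.62 (adjusted p = 0.025) with TIAR. ITGB8, the beta 8 chain that pairs with alpha V, read -4.31 and -5.67 with GFP, -3.04 and -2.90 with HuR, -3.01 and -2.59 with TIA1, and -3.17 and -2.54 with TIAR. Its probe was well above background on 1 of the 2 GFP arrays. With both GFP arrays its log2 fold change was 2.02 (adjusted p = 0.23) with HuR, 2.19 (adjusted p = 0.15) with TIA1 and 2.14 (adjusted p = 0.24) with TIAR. Of the 5 members upregulated in both comparisons with HuR, 4 had both GFP arrays between the HuR mean and the means of the TIA lines, and the exception was ITGAM. For ITGB4 this order depended on the normalization. Its HuR value against GFP turned positive with quantile normalization, with normexp added and with the authors' values. This place of the GFP arrays was looked at after the values were seen.

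The genes that work with integrins and laminins were followed in 4 lists, whose counts stand beside the shares of all genes given above (8.45% up and 4.74% down with TIA1, 7.39% and 2.83% with TIAR); the difference from these shares was not tested. Of 33 adhesion adaptors and kinases, 31 were tested, and against HuR 5 were upregulated and 1 downregulated with TIA1 and 5 and 0 with TIAR. The medians were 0.00 and 0.14. TGFB1I1, the focal adhesion adaptor Hic-5, had 1.72 (adjusted p = 0.0032) and 1.43 (adjusted p = 0.0058). LIMS2, which joins integrin-linked kinase to the cytoskeleton, had 1.49 (adjusted p = 0.0027) and 1.54 (adjusted p = 0.0059). TENC1, a tensin, had 1.70 (adjusted p = 0.0055) and 1.18 (adjusted p = 0.023), and the kinase gene SRC was called in both as well, with 1.17 and 1.36. PARVB, a parvin, had -1.54 (adjusted p = 0.0026) with TIA1 and, below 2-fold, -0.95 (adjusted p = 0.0087) with TIAR. FERMT1 had 1.51 (adjusted p = 0.0025) with TIA1 and 0.72 (adjusted p = 0.051) with TIAR. Its probe read -2.14 and -2.15 with HuR, -0.64 and -0.63 with TIA1, and -1.66 and -1.19 with TIAR. With GFP it read -0.20 and 0.03, so that both TIA lines lay between HuR and GFP. NEDD9, a scaffold protein of focal adhesions, had 1.38 (adjusted p = 0.0061) with TIAR against HuR and 1.35 (adjusted p = 0.023) against TIA1.

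Of 22 basement membrane partners, 5 were upregulated and 3 downregulated with TIA1 (19 tested), and 4 and 1 with TIAR (20 tested). The 3 downregulated with TIA1, COL4A5, COL4A6 and COL4A3, encode chains of collagen IV, while other chains had positive values below 2-fold: COL4A2 0.94 (adjusted p = 0.0054), COL4A4 0.87 (adjusted p = 0.0085) and COL4A1 0.24 (adjusted p = 0.29). COL4A5 read 1.29 and 1.35 with HuR, -1.08 on both TIA1 arrays, and -0.25 and 0.34 with TIAR. On the GFP arrays it read -0.47 and 0.13. Against HuR it changed by -2.40 ± 0.09 (SE, adjusted p = 0.0018) and -1.28 ± 0.22 (SE, adjusted p = 0.022). Against GFP the limma values were -0.91 (adjusted p = 0.19) with TIA1, 0.21 (adjusted p = 0.77) with TIAR and 1.49 (adjusted p = 0.19) with HuR. COL4A6 had -1.15 (adjusted p = 0.0043) with TIA1. COL4A3, not well above background with TIA1 and tested through the HuR arrays alone, was at least 2.36-fold lower (adjusted p = 0.0069). With TIAR, COL4A6 had -0.95 (adjusted p = 0.011) and COL4A3 -1.06 (adjusted p = 0.061), neither called. FBLN1, the matrix protein fibulin 1, had 1.41 (adjusted p = 0.0029) and 1.35 (adjusted p = 0.0055). BCAM, a surface receptor for the laminin alpha 5 chain, had 1.22 (adjusted p = 0.02) and 1.27 (adjusted p = 0.014). LGALS1, a galectin that binds laminin sugars, had 1.02 (adjusted p = 0.0043) with TIA1 and 1.97 (adjusted p = 0.0037) with TIAR, called in both. SMOC2, tested through the TIAR arrays alone, was at least 1.71-fold higher with TIAR (adjusted p = 0.026). FREM2 had 1.50 (adjusted p = 0.0041) with TIA1 against HuR and -1.27 (adjusted p = 0.03) with TIAR against TIA1.

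Of 22 other integrin ligands, 13 were tested, with 1 upregulated and 1 downregulated with TIA1 and 2 and 2 with TIAR. TNXB, tenascin X, read -1.71 and -1.72 with HuR, 0.80 and 0.85 with TIA1, and 0.17 and 0.15 with TIAR, and had 2.54 ± 0.09 (SE, adjusted p = 0.0018) and 1.87 ± 0.09 (SE, adjusted p = 0.0037). TNC, tenascin C, a ligand of alpha 8 and alpha 9, went the other way with -1.90 (adjusted p = 0.0041) and -1.38 (adjusted p = 0.0091). CDH1, E-cadherin, had 1.09 (adjusted p = 0.0077) with TIAR, and EDIL3 had -1.04 (adjusted p = 0.015). Of 14 tetraspanins and lateral partners, 13 were tested, with 3 upregulated and 1 downregulated with TIA1 and 2 and 0 with TIAR. PLAUR, the urokinase receptor, had 1.76 (adjusted p = 0.0025) and 1.33 (adjusted p = 0.0061), and the syndecan SDC4 had 1.21 (adjusted p = 0.004) and 1.27 (adjusted p = 0.0058). CD47 had -1.33 (adjusted p = 0.0034) with TIA1, and its means were 2.93 with HuR, 1.61 with TIA1 and 2.13 with TIAR. CD44 had 1.51 (adjusted p = 0.029) in TIAR- versus TIA1-expressing cells. None of the 4 lists had a gene called against GFP in limma, where 0% of all genes were called. The place of the GFP mean differed between genes. SDC4 had the means 0.84 with GFP, -0.39 with HuR, 0.81 with TIA1 and 0.88 with TIAR. In the same order SRC had -0.82, -1.86, -0.69 and -0.5, and CDH1 had -2.4, -3.46, -3.7 and -2.36. GFP lay nearer to HuR for TNXB (-1.17, -1.72, 0.82 and 0.16) and LGALS1 (1.18, 1.09, 2.11 and 3.06). The other genes were not sorted in this way.

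**Figure D4:**
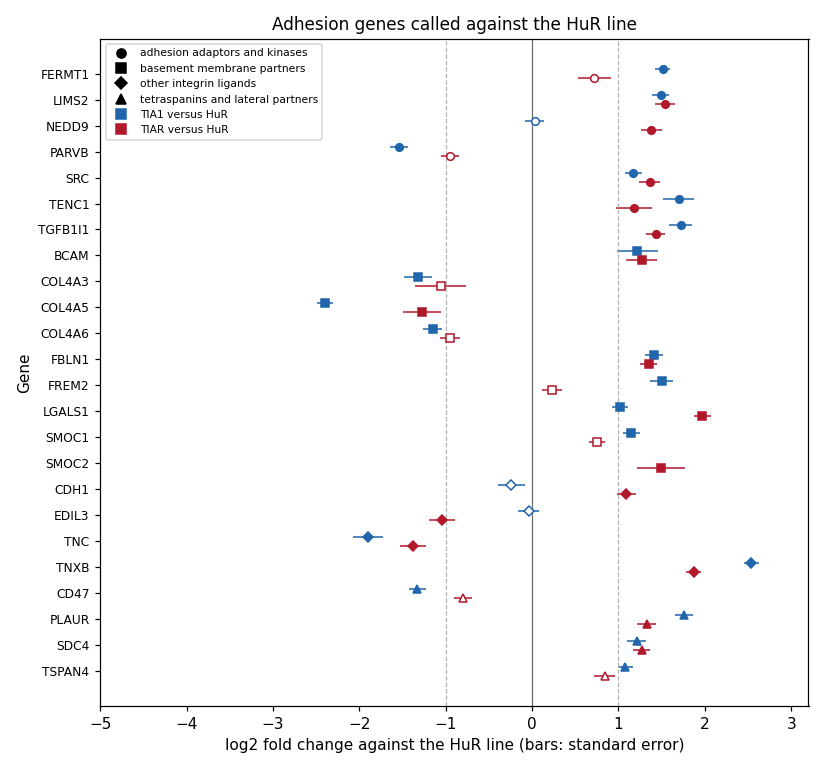
Log2 fold change against HuR-expressing cells, with standard errors from limma, for genes of the 4 lists called in at least 1 of both comparisons (blue, TIA1; red, TIAR; filled, called; dashed lines, 2-fold). The symbol shows the list, and COL4A3 with TIA1 and SMOC2 with TIAR are fitted values of probes not above background in 1 of the compared lines. TNXB lies farthest to the right and COL4A5 farthest to the left in TIA1-expressing cells.

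The cell type was checked with markers. All 8 HEK293 genes were well above background on both arrays of the HuR, TIA1 and TIAR lines, and 7 were in the GFP line. Their summed signal was 43.2 and 41.5 with HuR, 43.3 and 41.3 with TIA1, 32.1 and 31.4 with TIAR, and 36.4 and 42.2 with GFP, so it was lowest on the TIAR arrays. NEFL, a neurofilament gene of this list, was lower than with HuR with TIA1 (-1.40, adjusted p = 0.0028) and with TIAR (-1.68, adjusted p = 0.0049), and NEFM with TIAR (-1.05, adjusted p = 0.0088). The NEFL mean was 3.03 with HuR, 1.99 with GFP, 1.63 with TIA1 and 1.34 with TIAR. INA, of the same list, went the other way against HuR, below 2-fold. It had 0.73 (adjusted p = 0.0083) with TIA1 and 0.38 (adjusted p = 0.05) with TIAR. PAX2 had 0.6 (adjusted p = 0.039) with TIA1 and -0.26 (adjusted p = 0.19) with TIAR. LIN28B and IGF2BP1 had the highest signals of the HEK293 list and so weigh most in its sum. The LIN28B mean was 4.03 with HuR, 4.06 with TIA1, 3.53 with TIAR and 3.92 with GFP. In the same order IGF2BP1 had 3.42, 3.71, 3.3 and 3.48. With TIAR against HuR, LIN28B had -0.5 (adjusted p = 0.03) and IGF2BP1 -0.13 (adjusted p = 0.44). Of 7 endothelial markers 2 were above background, and PECAM1, KDR, TEK, ROBO4 and CLDN5 were not. Their summed signal was 0.104 and 0.101 with HuR, 0.128 and 0.155 with TIA1, 0.0879 and 0.126 with TIAR, and 0.17 and 0.114 with GFP. VWF was upregulated with TIA1 (1.03, adjusted p = 0.0086). Of 8 fibroblast markers 2 to 4 were above background in a line, and COL1A2, COL3A1, PDGFRB and THY1 were not in any. The summed fibroblast signal was 0.651 and 0.655 with HuR, 0.634 and 0.537 with TIA1, 1.07 and 0.847 with TIAR, and 2.74 and 0.252 with GFP, where the arrays lay farthest apart. LUM had -1.65 (adjusted p = 0.0044) with TIA1 against HuR and 1.78 (adjusted p = 0.034) with TIAR against TIA1. It read -5.61 and -6.08 with GFP, below every array of the other lines. The HuR arrays read -1.63 and -1.71, and the TIA1 arrays -3.15 and -3.51. DCN had 1.46 (adjusted p = 0.0047) with TIAR against HuR. COL1A1 had 0.83 (adjusted p = 0.0098) with TIA1 and 1.00 (adjusted p = 0.013) with TIAR against HuR, neither called. The part of these in the results above was not tested.

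The start regions of the genes were set beside these changes. RefSeq promoters on GRCh38.p14 matched 26 of the 38 members, and 4 of the called ones, ITGA8, ITGAM, LAMB2 and LAMB3. The 250 bases before the start of ITGA8 and of LAMB2, which were upregulated in both comparisons, are printed with each GGGCGG on either strand in capitals.
ITGA8 (chr10:15719923-15720172, minus strand): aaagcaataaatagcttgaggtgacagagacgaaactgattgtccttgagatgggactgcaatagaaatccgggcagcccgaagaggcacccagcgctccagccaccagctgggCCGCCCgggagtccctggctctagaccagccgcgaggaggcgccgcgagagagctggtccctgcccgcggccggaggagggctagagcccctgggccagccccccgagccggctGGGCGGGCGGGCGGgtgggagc
LAMB2 (chr3:49133051-49133300, minus strand): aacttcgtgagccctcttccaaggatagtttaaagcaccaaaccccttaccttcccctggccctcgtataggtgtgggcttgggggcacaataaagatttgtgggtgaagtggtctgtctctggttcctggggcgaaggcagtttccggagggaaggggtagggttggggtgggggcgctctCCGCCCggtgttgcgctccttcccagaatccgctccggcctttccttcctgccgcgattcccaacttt
GGGCGG, the letters of a GC box, occurred 4 times before ITGA8, with overlaps counted, and 1 time before LAMB2. It was found in 13 of the 26 members' windows and in 42.3% of the 27305 windows of all genes. The p53 decamer, the motif that p53 binds in pairs, searched because the deposited series' title names p53, was in 0 of 26 and in 5.53% of all. TATAAA was in 1 of 26 and in 11.1% of all, and CACGTG and TGANTCA were each in 1 of 26, against 6.49% and 6.6%.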

How the data were processed

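The authors deposited Agilent Feature Extraction output of 8 one-colour arrays, whose processed signals, intensity values, had been corrected for background and for trends across each array. Their series table holds log2 values, deposited as normalized between arrays. The submitters' processing notes name limma. The methods name the SurePrint G3 Human 8x60K v2 array, and probe positions are on hg19. Here log2 processed signals minus each array's 75th percentile were used, without outlier spots, and averaged over the spots of a probe. R 4.3.3 and limma 3.58.1 (lmFit, eBayes) tested the 4 arrays of each comparison, and limma was also tested on simulated data. Data were read with data.table (version 1.17.8) and plotted with matplotlib 3.10.9. Bounds (at least N-fold) set a dim probe, on each array, at its own signal or, if higher, at that of the dimmest probe marked well above background. The members and lists were chosen with earlier results of these data known. Named are members called in any comparison, ITGB1, ITGAV, ITGA8, LAMA1, LAMB1, LAMB2 and LAMC1, and up to 4 called genes of a list and comparison; further genes were named after their values were seen. The number of arrays limits the precision.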

Additional observations from a re-analysis of the deposited data

How the results depend on the processing

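With 2 arrays per line, leaving out 1 array gave 4 to 7 members called in TIA1- versus HuR-expressing cells, 3 to 8 in TIAR- versus HuR-expressing cells, 0 in TIAR- versus TIA1-expressing cells, and 0 to 10, 0 to 13 and 0 to 10 for TIA1, TIAR and HuR against GFP, the highest without GFP 2. The share of all genes called moved too: 9.98% to 14.2%, 2.29% to 12.2% and 0% to 0.12%, and against GFP from 0% to 22.9%, 20.5% and 23.8%. The 16 called changes of 9 members turned sign under 0 alternatives.

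In the TIA1 comparison with HuR, normexp with quantile normalization and the authors' values gave 3 members called instead of 6. The share of all genes called was 6.12% and 6.09% there, against 13.2% in the main setting. In the TIAR comparison normexp gave 5 instead of 8, and normexp with quantile normalization, the authors' values and the unadjusted paired test gave 4. Of all genes 5.9%, 4.28%, 4.51% and 4.73% were called in these settings, against 10.2% in the main setting. The paired test after Benjamini-Hochberg adjustment gave 0 in each comparison, and 0% of all genes. Between TIAR and TIA1 normexp, quantile normalization, both together, the authors' values, no filter and the replicate block gave 0 instead of 2. Of all genes 1.05%, 2.2%, 1.11%, 1.15%, 0% and 0% were called in these settings, against 2.37% in the main setting. The unadjusted paired test gave 1 member, against 1.55% of all genes. Against GFP, all 8 arrays in one fit gave 4 members for TIA1, 6 for TIAR and 3 for HuR, and without GFP 1 this fit gave 8, 4 and 3. The unadjusted paired test gave 1 for TIA1 and 1 for TIAR, and unadjusted limma 4, 6 and 4. The shares of all genes in these settings against GFP are given above. The cause of these differences was not tested.

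The deviations of same-numbered arrays correlated at -0.09 to 0.18 over the 6 pairs of lines. With 2 arrays per line, this cannot show whether arrays of the same replicate number were prepared together. With the replicate block 6 members were called in the TIA1 and 8 in the TIAR comparison with HuR, against 13.3% and 10.2% of all genes. Between TIAR and TIA1 the block gave 0 instead of 2, and against GFP 0, with 0% of all genes called in each.

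Of 42 uncalled values past 1 standard error of 0, 5 turned sign. LAMC3 in TIA1 versus HuR became 0.02 with normexp. ITGA7 in TIAR versus TIA1 became -0.10 with normexp and -0.11 with quantile normalization added. LAMB3 in TIA1 versus GFP became 0.17 with quantile normalization, 0.10 with normexp added and 0.07 with the authors' values, and ITGB4 in HuR versus GFP became 0.56, 0.07 and 0.04. The ITGAM values in TIA1, TIAR and HuR versus GFP were 1.65, 1.53 and 0.29 without GFP 1 (0.29 for HuR in the fit of 7 arrays too) and -1.22, -1.34 and -2.58 without GFP 2. Of 17 further uncalled values within 1 standard error of 0, 14 turned sign under an alternative, and ITGAM in TIA1 and TIAR versus GFP, 2 of them, was then called.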
